A study of Mus musculus with 8 samples.

Results

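The miR-200 family is a set of epithelial microRNAs, represented here by 5 mature 3p miRNAs: mmu-miR-200b-3p, mmu-miR-200a-3p, mmu-miR-429-3p, mmu-miR-200c-3p and mmu-miR-141-3p, written without the species prefix below. They were chosen by name among the 1881 mouse miRNAs on the array, with earlier results of these data known. All 5 had probes, and 4 of the 5 entered the test of 294 miRNAs, with miR-200c-3p too dim to do so. The donors of the plasma were female mice of the outbred NMRI stock, 3 months old. IMB mice received imatinib, a tyrosine kinase inhibitor, by mouth at 100 mg/kg every day for 9 days. DOX mice received doxorubicin, an anthracycline that damages DNA, into the tail vein at 3 mg/kg, with 4 doses given on alternate days. CTRL mice received solvents only. RNA for an array came from 300 µl of a plasma pool of 3 mice, which gave 3 IMB pools from 9 mice, 3 DOX pools from 9 mice and 2 CTRL pools from 6 mice. No genetic change or tumour is named in the labels.

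Members of the miR-200 family are transcribed from a pair of genomic clusters and are abundant in epithelial cells. They repress the transcription factors ZEB1 and ZEB2, which in turn repress E-cadherin and the miR-200 clusters themselves, a loop that holds cells in an epithelial or a mesenchymal state. Target choice depends mainly on the seed, bases 2 to 8 of the mature strand. In plasma such miRNAs circulate outside cells, in vesicles or bound to proteins. Plasma has no cells of its own to which a level can be assigned, so a different number of releasing cells, a different release per cell and a different clearance cannot be told apart.

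The mature sequences are shown because the family holds 2 seeds that differ at 1 base, and because close relatives can share signal on an array. They are from RefSeq (GRCm38.p6), where all 5 members were matched by name, and are written 5′ to 3′ with the seed in capitals.
mmu-miR-200b-3p: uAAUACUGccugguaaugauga
mmu-miR-429-3p: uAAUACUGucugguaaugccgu
mmu-miR-200c-3p: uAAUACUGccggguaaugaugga
mmu-miR-200a-3p: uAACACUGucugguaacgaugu
mmu-miR-141-3p: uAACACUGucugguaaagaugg
The first 3 share the seed AAUACUG and the other 2 the seed AACACUG. Counting from 1 at the 5′ end, with the base of the first-named miRNA given first, the seeds of miR-200b-3p and miR-200a-3p differ by U4C. Outside the seed, miR-200b-3p and miR-200c-3p differ by U11G and A22G, and miR-200c-3p is 1 base longer. miR-200a-3p and miR-141-3p differ by C17A and U22G. The most distant pairs differ at 5 of 22 compared positions. Cross-hybridisation between members was not tested, since the probe sequences were not used here.

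Seed and cluster do not coincide. The hairpins of miR-429 (chr4:156053905-156053987), miR-200a (chr4:156054896-156054985) and miR-200b (chr4:156055681-156055750) lie on the minus strand of mouse chromosome 4 in GRCm38.p6 and span 1846 bases. The span overlaps the long noncoding RNA gene Gm13648, and the nearest protein-coding neighbour at lower coordinates is Ttll10. The hairpins of miR-141 (chr6:124717914-124717985) and miR-200c (chr6:124718322-124718390) lie on the minus strand of chromosome 6 and span 477 bases between Phb2, a prohibitin gene, and Ptpn6, a gene for a tyrosine phosphatase. Each cluster therefore holds both seeds.

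All 8 arrays lay on 1 slide, in 2 rows, and share 1 scan time. Each array held 58594 spots, none of them saturated, and each member had 2 probes with 15 spots each. A miRNA counted as detected where more than 50% of the usable spots of a probe were well above background. Before scaling, the arrays' 75th percentiles were 196, 425 and 320 in the IMB pools, 213, 249 and 267 in the DOX pools, and 300 and 349 in the CTRL pools. DOX pools were thus dimmer than both CTRL pools, and the IMB pools spanned the widest range. Levels below are log2 of the signal after each array was scaled to that percentile, with a floor at 4.39 (20.9 on the linear scale) below which no value is given. Levels compare pools for 1 miRNA and do not compare miRNAs with each other. The labels call the pools biological replicates, and their number limits the precision of every value.

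Of the family, miR-200b-3p, miR-200a-3p and miR-429-3p, the chromosome 4 cluster, were measured with both probes on all 8 arrays. miR-141-3p was detected on all 8 arrays by 1 probe only, and its dimmer probe was detected on 0 of 8. miR-200c-3p was detected on 2 of 3 IMB arrays, 1 of 3 DOX arrays and 1 of 2 CTRL arrays, by 1 probe. Agilent's own detection flag was set for all 5 members on all 8 arrays. The 5p strands from the opposite arms of the same hairpins were detected on 0 of 8 arrays.

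mmu-miR-200b-3p had log2 levels of 6.22, 5.93 and 5.98 in the IMB pools, 6.16, 6.37 and 6.52 in the DOX pools, and 5.75 and 5.82 in the CTRL pools. Every treated pool lay above both CTRL pools, and IMB pool 1 lay above DOX pool 1, so the drug groups overlapped. mmu-miR-429-3p, which has the same seed and cluster, had levels of 5.36, 5.16 and 5.20 in the IMB pools, 5.40, 5.68 and 5.80 in the DOX pools, and 4.95 and 5.10 in the CTRL pools. For this miRNA the 3 groups did not overlap, with DOX highest and CTRL lowest. mmu-miR-200a-3p, with the other seed, had levels of 5.39, 5.15 and 5.07 in the IMB pools, 5.35, 5.54 and 5.72 in the DOX pools, and 5.08 and 5.09 in the CTRL pools. All DOX pools were above the CTRL pools, whereas IMB pool 3 lay just below both of them.

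mmu-miR-141-3p, the chromosome 6 member with that second seed, had levels of 4.61, 4.39 and 4.45 in the IMB pools, 4.39, 5.02 and 5.13 in the DOX pools, and 4.39 in both CTRL pools. Values of 4.39 are at the floor, so 4 of the 8 pools have no order among themselves and only DOX pools 2 and 3 stood clear of the rest. DOX pool 3 was the highest pool and DOX pool 1 the lowest DOX pool for each of the 4 measured members.

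**Figure D1:**
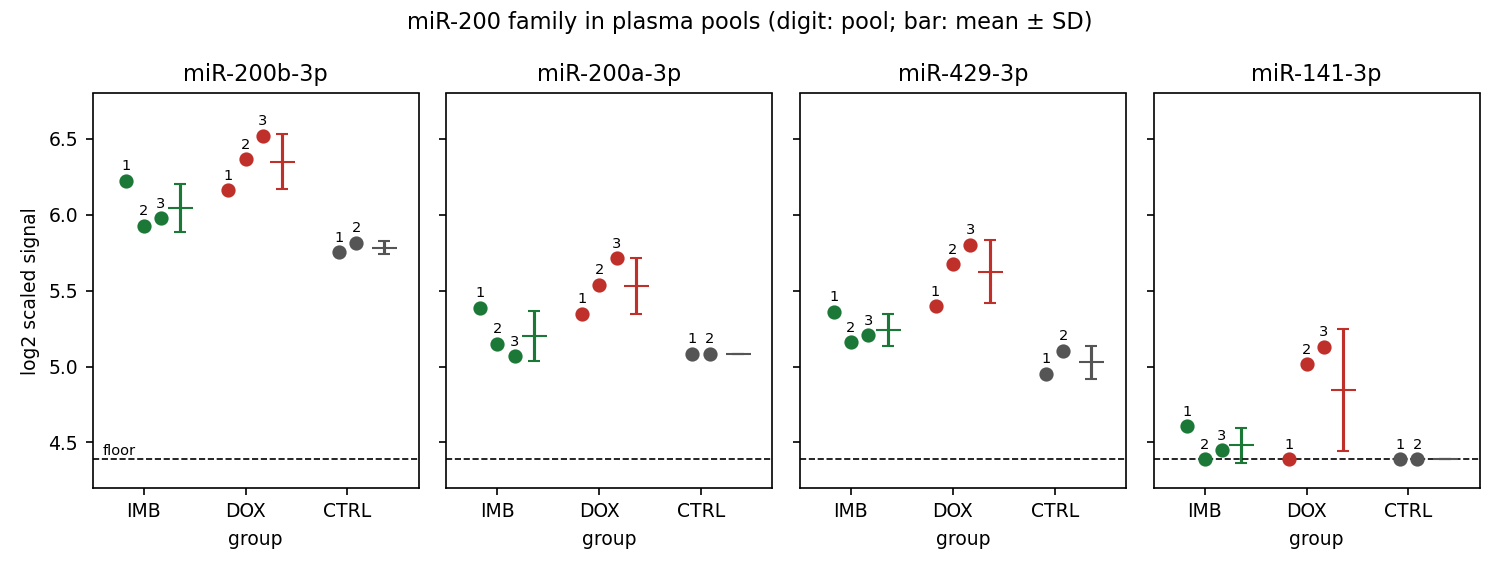
Log2 scaled signal (vertical axis) of the 4 measured members in each plasma pool, by group; digits are pool numbers, which carry no order, bars are mean and SD, and the dashed line is the floor at 4.39. DOX pool 3 is the highest point in every panel, and miR-141-3p is at the floor in 4 of 8 pools.

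The question of the DOX comparison was how plasma of doxorubicin-treated mice differed from that of solvent controls. All 4 measured members had higher mean levels in the DOX pools, by 1.36 to 1.51-fold, and none passed the threshold of an adjusted p of 0.05 in limma, which was adjusted over all 294 miRNAs. miR-429-3p averaged 5.62 ± 0.21 in the DOX pools (SD, n = 3) and 5.03 ± 0.11 in the CTRL pools (SD, n = 2), a log2 difference of 0.60 (SE 0.13, limma adjusted p = 0.227). miR-200b-3p averaged 6.35 ± 0.18 in the DOX pools (SD, n = 3) and 5.78 ± 0.04 in the CTRL pools (SD, n = 2), a log2 difference of 0.57 (SE 0.13, limma adjusted p = 0.227). miR-200a-3p averaged 5.53 ± 0.18 in the DOX pools (SD, n = 3) and 5.08 in the CTRL pools (SD 0.00087, n = 2), a log2 difference of 0.45 (SE 0.14, limma adjusted p = 0.351). Each of these differences was larger than the SD of either group. For these 3 miRNAs the 95% intervals of the difference lay above 0, from 0.26 to 0.93 for miR-429-3p, from 0.24 to 0.90 for miR-200b-3p and from 0.11 to 0.79 for miR-200a-3p. They hold for 1 miRNA taken alone and not for a choice among 294.

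For miR-141-3p the log2 difference of DOX from CTRL was 0.46 (SE 0.23, limma adjusted p = 0.698), with an interval from -0.11 to 1.02. Its brighter probe alone, which is above the floor in every pool, had scaled signals of 32.2, 49.9 and 53.7 in the DOX pools and 31.8 and 27.8 in the CTRL pools, and gave 0.57 (SE 0.25, limma adjusted p = 0.563).

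The count past the threshold was 0 of 4 members, where 0.34% of all tested miRNAs passed. At an unadjusted p under 0.05, 3 of 4 members were higher in DOX, against 5.1% of all tested miRNAs. DOX and CTRL pools did not overlap for these 3, against 18.7% of all. By unadjusted p, miR-429-3p ranked 6, miR-200b-3p 8, miR-200a-3p 15 and miR-141-3p 39 of 294. The median difference of the 4 members was 0.51, and the median of all 294 was 0 with an interquartile range from -0.11 to 0.19. The 294 include 27 miRNAs at the floor on all arrays, whose differences are 0 and which lower the shares of all in each comparison. Without them the median of all was 0.03 for DOX minus CTRL, 0.04 for IMB minus CTRL and -0.02 for IMB minus DOX. The members vary together across pools, so the 4 are not independent measurements of the comparison. They were also chosen with earlier results of these data known, so these shares and ranks are descriptions and not a test of enrichment.

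Both probes of each chromosome 4 member gave a similar size for DOX minus CTRL. They gave 0.65 and 0.54 for miR-200b-3p, 0.47 and 0.41 for miR-200a-3p, and 0.59 and 0.60 for miR-429-3p. In a fit with each probe as its own entry, 0 of these probes passed the threshold, against 0.366% of 547 probes.

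**Figure D2:**
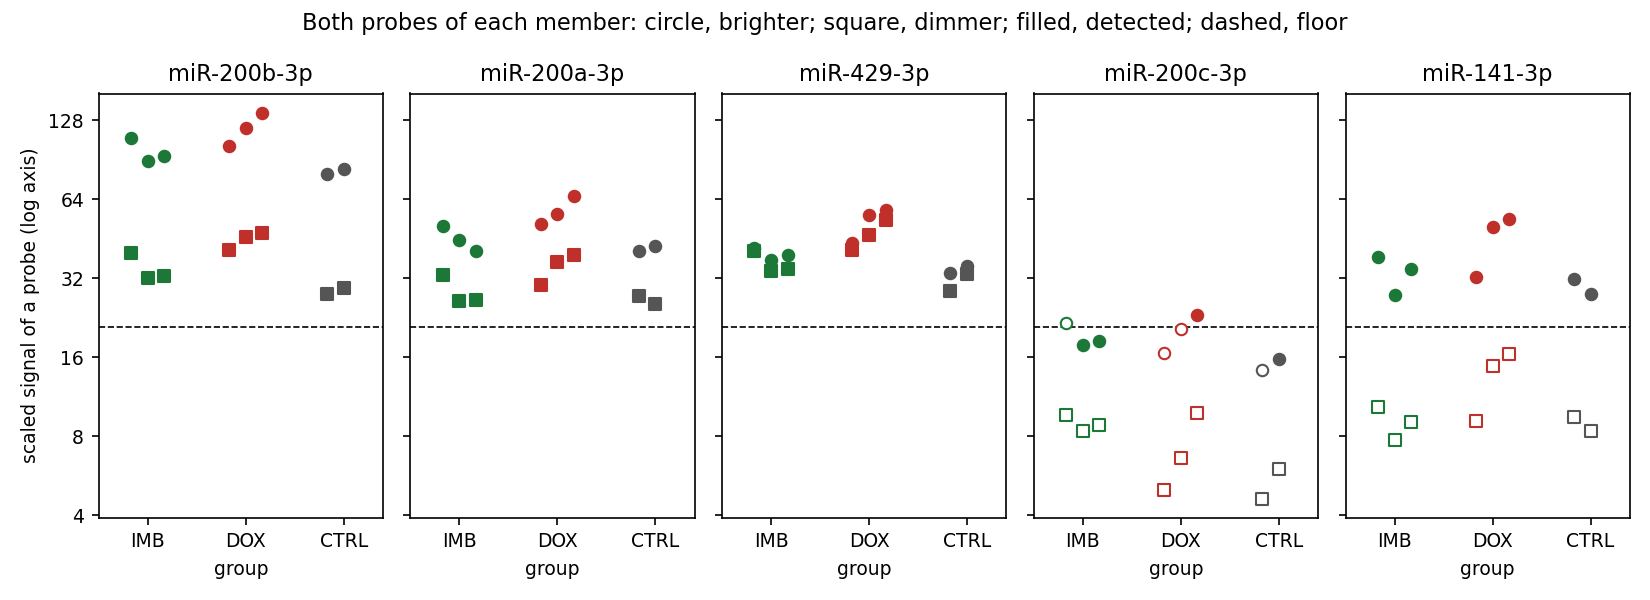
Scaled signal of both probes of each member (vertical axis, log scale) in every pool, by group; circles are the brighter and squares the dimmer probe, filled points are detected, and the dashed line is the floor at 20.9. Both probes of the chromosome 4 members lie above the floor in every pool, while the dimmer probes of miR-141-3p and miR-200c-3p are below it throughout.

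Within each row of the slide, where no row holds more than 2 pools of a group, only the size of the difference is informative. Its direction could not reverse, since no DOX pool lay below a CTRL pool for any measured member. In rows 1 and 2 the difference of DOX from CTRL was 0.51 and 0.71 for miR-200b-3p, 0.36 and 0.63 for miR-200a-3p, 0.58 and 0.70 for miR-429-3p, and 0.31 and 0.74 for miR-141-3p. Leaving out DOX pool 3 gave a median difference of the members of 0.42, and leaving out DOX pool 1 gave 0.67.

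The question of the IMB comparison was how plasma of imatinib-treated mice differed from the same controls. All 4 members had higher mean levels in the IMB pools, by 1.07 to 1.20-fold, and the 95% intervals of all 4 differences included 0. miR-200b-3p averaged 6.04 ± 0.16 in the IMB pools (SD, n = 3) and 5.78 ± 0.04 in the CTRL pools (SD, n = 2), a log2 difference of 0.26 (SE 0.13, limma adjusted p = 0.755). miR-429-3p averaged 5.24 ± 0.11 in the IMB pools (SD, n = 3) and 5.03 ± 0.11 in the CTRL pools (SD, n = 2), a log2 difference of 0.21 (SE 0.13, limma adjusted p = 0.758). miR-200a-3p differed by 0.12 (SE 0.14) and miR-141-3p by 0.09 (SE 0.23), with limma adjusted p of 0.919 and 0.978. For miR-141-3p, at the floor in both CTRL pools and in IMB pool 2, the brighter probe alone gave 0.16 (SE 0.25, limma adjusted p = 0.902). The intervals ran from -0.07 to 0.59 for miR-200b-3p, from -0.12 to 0.55 for miR-429-3p, from -0.22 to 0.45 for miR-200a-3p and from -0.47 to 0.66 for miR-141-3p. The difference measured for DOX minus CTRL lies inside the interval for 3 members and just above it for miR-429-3p.

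Past the threshold were 0 of 4 members, against 1.02% of all tested miRNAs, and 0 of 4 had an unadjusted p under 0.05, against 5.44% higher and 2.38% lower. The groups did not overlap, with IMB higher, for 2 of 4 members, miR-200b-3p and miR-429-3p, against 10.9% of all. The median difference of the members was 0.17, beside 0.01 for all tested miRNAs, whose interquartile range was -0.13 to 0.16. In rows 1 and 2 of the slide the difference of IMB from CTRL was 0.47 and 0.14 for miR-200b-3p, 0.30 and 0.02 for miR-200a-3p, 0.41 and 0.08 for miR-429-3p, and 0.22 and 0.03 for miR-141-3p. Row 1 holds IMB pool 1 alone, and this pool was the highest IMB pool for each measured member. Without it the difference was 0.17 for miR-200b-3p, 0.02 for miR-200a-3p, 0.15 for miR-429-3p and 0.03 for miR-141-3p, so the values of miR-200a-3p and miR-141-3p rest largely on that pool. Without IMB pool 3 the difference of miR-200a-3p was 0.18, and without CTRL pool 1 that of miR-429-3p was 0.14.

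Imatinib and doxorubicin were also compared directly, which is the test of whether their differences from the shared controls differ. All 4 members were lower on average in the IMB pools. miR-429-3p averaged 5.24 ± 0.11 in the IMB pools and 5.62 ± 0.21 in the DOX pools (SD, n = 3 each), a log2 difference of -0.38 (SE 0.12, limma adjusted p = 0.327). miR-200a-3p averaged 5.20 ± 0.17 in the IMB pools and 5.53 ± 0.18 in the DOX pools (SD, n = 3 each), a log2 difference of -0.33 (SE 0.12, limma adjusted p = 0.382). miR-200b-3p differed by -0.31 (SE 0.12, limma adjusted p = 0.407), and miR-141-3p by -0.36 (SE 0.20, limma adjusted p = 0.575). Their intervals ran from -0.68 to -0.08 for miR-429-3p, from -0.63 to -0.03 for miR-200a-3p, from -0.60 to -0.01 for miR-200b-3p and from -0.87 to 0.14 for miR-141-3p.

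Of the 4 members 0 passed the threshold, against 1.02% of all tested miRNAs. At an unadjusted p under 0.05, 3 of 4 were lower with imatinib, against 5.1% of all. The groups did not overlap for 1 of 4, miR-429-3p, against 8.16%. The median difference of the members was -0.35, beside 0 for all tested miRNAs with an interquartile range from -0.17 to 0.13. The size differed between the rows of the slide: it was -0.04 in row 1 and -0.57 in row 2 for miR-200b-3p, -0.06 and -0.61 for miR-200a-3p, -0.17 and -0.62 for miR-429-3p, and -0.09 and -0.71 for miR-141-3p. Row 1 holds 1 IMB and 2 DOX pools, and row 2 holds 2 IMB pools and 1 DOX pool. Leaving out DOX pool 3 gave a median difference of -0.23, and leaving out DOX pool 1 gave -0.46. For miR-141-3p alone these were -0.22 and -0.59.

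**Figure D3:**
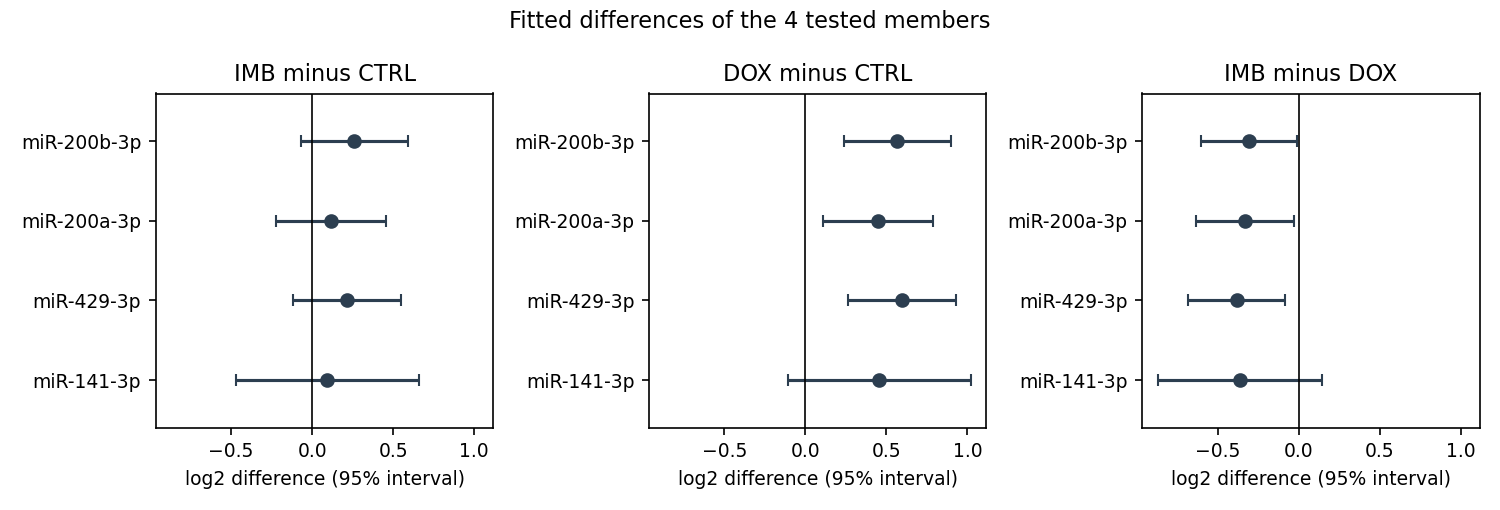
Fitted log2 differences of the 4 tested members (points) with 95% intervals (bars) in the 3 comparisons, on a common horizontal axis. Intervals of miR-200b-3p, miR-200a-3p and miR-429-3p lie above 0 for DOX minus CTRL and include 0 for IMB minus CTRL.

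Relative to its own mean over the 8 arrays, the mean of the 4 measured members was 0.07, -0.17 and -0.15 in the IMB pools, -0.01, 0.32 and 0.46 in the DOX pools, and -0.29 and -0.23 in the CTRL pools. Thus the family spread over more of the log2 scale among the DOX pools than between the IMB and CTRL group means. The measured members followed each other closely. Pearson's r between pairs, over 8 arrays that share their scaling and labelling, was 0.88 to 0.98, lowest for miR-200b-3p with miR-141-3p and highest for miR-200b-3p with miR-429-3p.

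The chromosome 4 cluster and miR-141-3p followed the groups alike to within about the spread of pools, as a description without a test. miR-141-3p stands alone for the chromosome 6 cluster here, since miR-200c-3p was at the floor on all arrays. Taken per array and relative to each member's own mean, the chromosome 4 mean minus miR-141-3p was 0.03 ± 0.04 in the IMB pools (SD, n = 3), 0.01 ± 0.22 in the DOX pools (SD, n = 3) and -0.07 ± 0.05 in the CTRL pools (SD, n = 2). The DOX pools covered the values of both other groups, while the IMB and CTRL pools did not overlap. With the brighter miR-141-3p probe, which avoids the floor, it was 0.04 ± 0.17 in the IMB pools, -0.04 ± 0.22 in the DOX pools and -0.00 ± 0.19 in the CTRL pools, and all groups overlapped. For the seeds, the mean of the measured miRNAs with seed AAUACUG minus that with AACACUG was 0.03 ± 0.03 in the IMB pools (SD, n = 3), 0.03 ± 0.10 in the DOX pools (SD, n = 3) and -0.10 ± 0.08 in the CTRL pools (SD, n = 2). Both CTRL pools lay below all treated pools in this contrast, in which miR-141-3p is at the floor in both. The difference of miR-200b-3p from miR-200a-3p, neither of them at the floor, had the same order. It was 0.04, -0.02 and 0.11 in the IMB pools, 0.02, 0.03 and 0.01 in the DOX pools, and -0.13 and -0.07 in the CTRL pools.

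mmu-miR-200c-3p was at the floor on all 8 arrays after averaging its probes and was not tested with the rest. Its brighter probe had scaled signals of 21.6, 17.8 and 18.4 in the IMB pools, 16.5, 20.5 and 23.2 in the DOX pools, and 14.2 and 15.7 in the CTRL pools. Detection held on 4 of 8 arrays for this probe and most values are below the floor of 20.9, so no order of the groups is read from it. Agilent's signal per miRNA, scaled in the same way, gave log2 levels of 2.27, 1.98 and 2.04 in the IMB pools, 1.93, 2.10 and 2.50 in the DOX pools, and 1.71 and 1.85 in the CTRL pools. On that signal the difference of miR-200c-3p was 0.32 (SE 0.21, limma adjusted p = 0.665) for IMB minus CTRL, 0.40 (SE 0.21, limma adjusted p = 0.540) for DOX minus CTRL and -0.08 (SE 0.19, limma adjusted p = 0.897) for IMB minus DOX.

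The summary of probes mattered most for the chromosome 6 pair. Agilent's signal per miRNA was the sum of both probes on all 8 arrays for each chromosome 4 member, and 1 probe on all 8 arrays for miR-200c-3p. For miR-141-3p it was the sum of both probes on DOX arrays 2 and 3 and 1 probe on the other 6 arrays. On this signal miR-141-3p differed by 0.81 between DOX and CTRL (SE 0.34, limma adjusted p = 0.448), against 0.46 in the averaged signal. In the authors' deposited table its values were 3.06, 2.38 and 2.94 in the IMB pools, 3.02, 3.63 and 4.06 in the DOX pools, and 2.83 and 2.47 in the CTRL pools.

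In the authors' deposited table miR-200c-3p was at 2.45, -0.61 and 2.05 in the IMB pools, 2.03, 2.28 and 2.59 in the DOX pools, and 0.02 and -0.07 in the CTRL pools. IMB pool 2 and both CTRL pools stood over 2 log2 units below the other 5 pools there, a gap that neither the brighter probe nor Agilent's signal showed. IMB pool 2 and CTRL pool 2 were also the arrays on which Agilent called the most miRNAs detected, with 329, 409 and 367 in the IMB pools, 318, 337 and 329 in the DOX pools, and 355 and 392 in the CTRL pools. What part that number had in the gap was not tested.

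**Figure D4:**
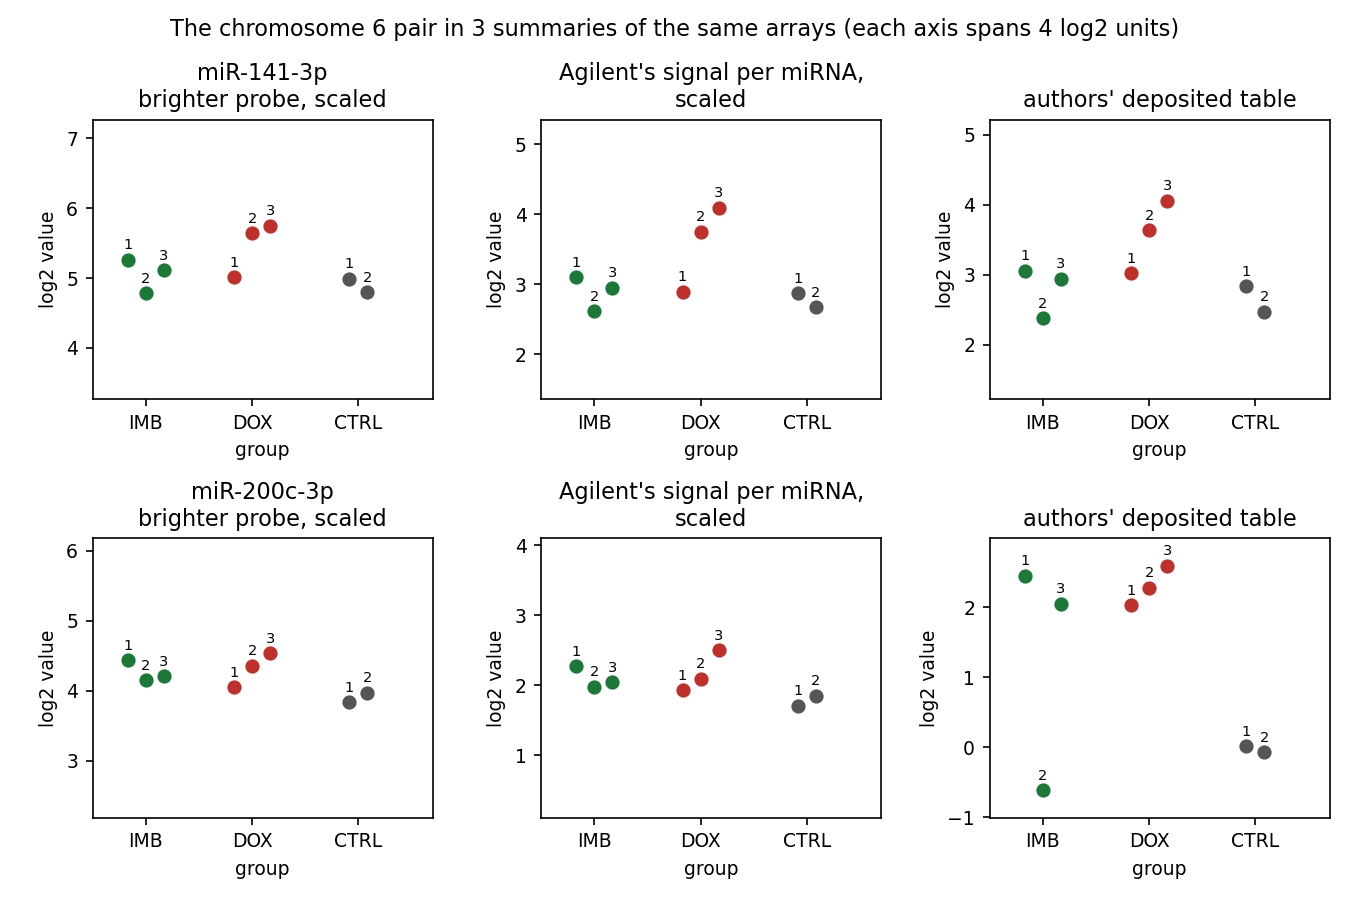
The chromosome 6 pair, miR-141-3p (top) and miR-200c-3p (bottom), in 3 summaries of the same arrays, by group; the vertical axes are log2 values that each span 4 units, and digits are pool numbers. For miR-200c-3p, IMB pool 2 and the CTRL pools are far below the others only in the authors' deposited table.

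Other miRNAs of epithelia were described beside the family from a list of 10, of which 6 were tested, 3 (miR-31-5p, miR-182-5p and miR-96-5p) were detected on 0 of 8 arrays and miR-183-5p on 1, and 0 of the 6 passed the threshold in any comparison. For DOX minus CTRL, 6 of 6 were higher, with a median of 0.40, against 48.6% of all tested miRNAs above 0. The shares of all count the 27 miRNAs at the floor on all arrays, which lie neither above nor below 0. For IMB minus CTRL, 4 were higher and 2 lower, with a median of 0.12, against 51.4% of all above 0. For IMB minus DOX, 1 was higher and 5 lower, with a median of -0.21, against 49.3% of all below 0. miR-205-5p, a miRNA of stratified epithelia that also represses ZEB factors, was at 7.56, 6.69 and 6.75 in the IMB pools, 8.52, 8.43 and 8.38 in the DOX pools, and 7.55 and 7.27 in the CTRL pools. All DOX pools lay above all others, with a log2 difference of 1.03 for DOX minus CTRL (SE 0.28, limma adjusted p = 0.312) and -1.44 for IMB minus DOX (SE 0.25, limma adjusted p = 0.072). miR-192-5p and miR-375-3p, of gut epithelium and of endocrine epithelium among others, differed between DOX and CTRL by 0.41 (SE 0.22) and 0.39 (SE 0.21), with limma adjusted p of 0.708 and 0.729. The rest, miR-194-5p, miR-215-5p and miR-203-3p, differed by 0.59 (SE 0.30), 0.23 (SE 0.26) and 0.09 (SE 0.24) there. miR-194-5p was the one higher in IMB than in DOX, by 0.21 (SE 0.27). Its difference for IMB minus CTRL was 0.80 (SE 0.30, limma adjusted p = 0.585).

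Among 237 other miRNAs detected on all 8 arrays, the 5 whose levels were most like the mean of the measured members, by Pearson's r over the 8 arrays, were miR-192-5p at 0.87, miR-34a-5p at 0.87, miR-27b-3p at 0.81, miR-375-3p at 0.80 and miR-27a-3p at 0.77. miR-192-5p had log2 levels of 9.34, 8.80 and 8.91 in the IMB pools, 9.02, 9.37 and 9.38 in the DOX pools, and 8.65 and 9.03 in the CTRL pools. Its groups overlapped, with IMB pool 1 close to DOX pools 2 and 3. miR-34a-5p, whose gene p53 activates, was at 4.71, 4.39 and 4.39 in the IMB pools, 6.53, 6.81 and 7.04 in the DOX pools, and 4.39 in both CTRL pools, so 4 of its 8 values are at the floor. These likenesses are descriptions over 8 arrays in 3 groups.

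Markers of other cell types were measured on the same arrays, and miR-144-3p, a miRNA of red cell precursors, was the only one of the marker lists past the threshold. miR-451a, miR-144-3p, miR-486a-5p and miR-16-5p, miRNAs abundant in red cells, were 4 of 4 detected on all arrays, with a summed scaled signal of 31644 to 39975 in the IMB pools, 17835 to 26857 in the DOX pools and 22448 to 37364 in the CTRL pools. This sum is mostly the signal of miR-451a, with log2 levels of 13.95 to 15.14, against 11.31 at most for the others. The median difference of these 4 miRNAs was 0.36 for IMB minus CTRL, -0.45 for DOX minus CTRL and 0.90 for IMB minus DOX, of opposite sign to the family's median in both comparisons with the DOX pools. Past the threshold were 1 of 4 for IMB minus CTRL, against 1.02% of all tested miRNAs, 0 of 4 for DOX minus CTRL, against 0.34%, and 1 of 4 for IMB minus DOX, against 1.02%. That one was mmu-miR-144-3p, with a log2 difference of 0.82 (SE 0.07, limma adjusted p = 0.00773) for IMB minus CTRL and 1.20 (SE 0.06, limma adjusted p = 0.000901) for IMB minus DOX. For DOX minus CTRL it differed by -0.38 (SE 0.07, limma adjusted p = 0.199). The limma adjusted p of mmu-miR-451a, mmu-miR-486a-5p and mmu-miR-16-5p was 0.317 or higher in each comparison. An index of red cell content, the log2 level of miR-451a minus that of miR-23a-3p, took values of 3.91, 4.45 and 3.90 in the IMB pools, 3.15, 2.68 and 2.73 in the DOX pools, and 3.84 and 3.18 in the CTRL pools. In that index every DOX pool was below every other pool, while the family mean was highest in the DOX group. For miR-451a alone the groups overlapped, with DOX pool 1 at 14.55 and CTRL pool 2 at 14.28. The separation in the index therefore also depends on miR-23a-3p, and the index is not a measure of red cell miRNAs alone. When this index was a covariate, IMB minus CTRL was larger, at 0.43 for miR-200b-3p, 0.23 for miR-200a-3p, 0.42 for miR-429-3p and 0.35 for miR-141-3p. DOX minus CTRL was smaller in that fit, at 0.37 for miR-200b-3p, 0.32 for miR-200a-3p, 0.36 for miR-429-3p and 0.16 for miR-141-3p, and IMB minus DOX was 0.06, -0.09, 0.05 and 0.20 in the same order. The index follows the drug closely here, so their parts in these differences cannot be told apart.

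In the other marker lists 0 miRNAs passed the threshold in any comparison. The summed signal of the endothelial miR-126a strands was 536 to 1053 in the IMB pools, 1007 to 1131 in the DOX pools and 756 to 798 in the CTRL pools. That of the myeloid and platelet miR-223 and miR-142a strands was 1176 to 1588 in the IMB pools, 1741 to 1999 in the DOX pools and 1519 to 1919 in the CTRL pools. This sum hides opposite directions. The log2 difference of DOX from CTRL was 0.21 for miR-223-3p, -0.35 for miR-142a-3p and -0.27 for miR-142a-5p. Liver miR-122-5p was at 604 to 2393 in the IMB pools, 1144 to 1858 in the DOX pools and 809 to 978 in the CTRL pools, and the neuronal miR-124-3p and miR-9-5p were detected on 0 of 8 arrays. For muscle, miR-133a-3p and miR-1a-3p summed to 56.5 to 719 in the IMB pools and 55.8 to 192 in the DOX pools, against 41.8 in both CTRL pools, where both are at the floor. Lymphocyte miR-150-5p was at 208 to 504 in the IMB pools, 259 to 350 in the DOX pools and 316 to 429 in the CTRL pools. The part of any of these markers in the family's differences was not tested.

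The family's differences were also read against the scaling. Without scaling between arrays, DOX minus CTRL was 0.14 for miR-200b-3p, 0.03 for miR-200a-3p, 0.18 for miR-429-3p and 0.28 for miR-141-3p, while the median of all tested miRNAs was -0.32. Relative to that median, the median of the 4 members was 0.48 higher in the DOX pools. A scaling factor shifts all values above the floor on an array by the same log2 amount. The family's position relative to the rest could therefore change only through values at the floor. Relative values without scaling or with other scaling factors are thus no separate check of that position. With miR-24-3p and miR-23a-3p as the scaling references, IMB minus DOX was 0.07 for miR-200b-3p, 0.05 for miR-200a-3p, -0.00 for miR-429-3p and -0.13 for miR-141-3p, while the median of all was 0.30. Relative to the median of all, the median of the 4 members for IMB minus DOX was -0.28 under this scaling and -0.28 without scaling, where the median of all was 0.23, beside -0.35 with the percentile. For IMB minus CTRL the references moved the median of all to 0.19, and relative to it the median of the members was 0.19, beside 0.16 with the percentile. The normexp background correction, which here adds an offset of 50 to every spot, moved the family closer to the rest. Such an offset narrows log2 differences of dim probes, and its part in the move was not tested. With normexp the median of all was 0.17 for DOX minus CTRL, 0.07 for IMB minus CTRL and -0.12 for IMB minus DOX. Relative to these, the median of the 4 members was 0.23 for DOX minus CTRL, 0.06 for IMB minus CTRL and -0.14 for IMB minus DOX, against 0.51, 0.16 and -0.35 in the same order without it.

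**Figure D5:**
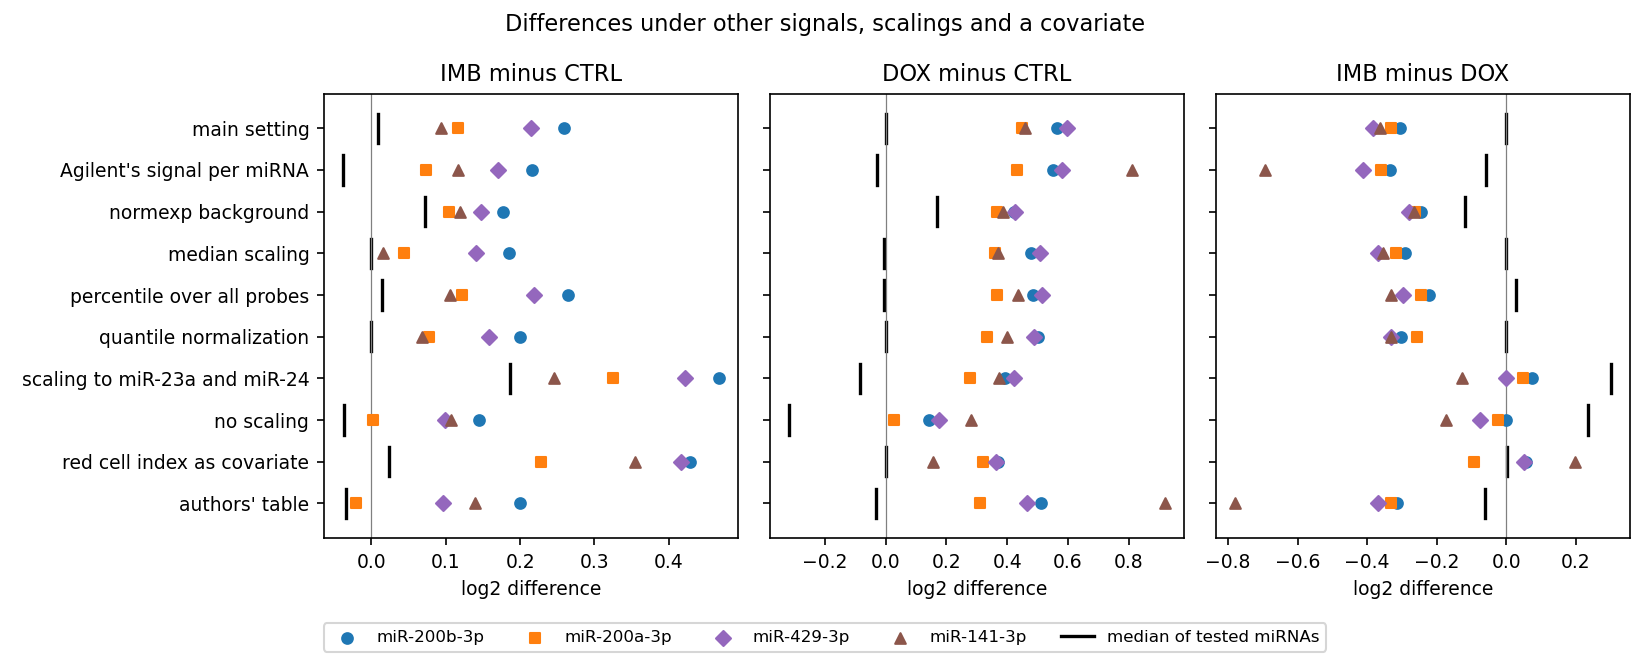
Log2 differences of the 4 tested members (points) under 10 ways of computing the signal, scaling or model (rows), with the median of all tested miRNAs (black ticks), in the 3 comparisons; the horizontal axes differ in range. All 4 members lie to the right of the tick in every row for DOX minus CTRL, and to its left in every row for IMB minus DOX except the one with this red cell covariate, where miR-200a-3p alone does. Rows that differ only by a scaling factor per array shift members and tick together, apart from values at the floor.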

How the data were processed

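Each array is a 1-colour Agilent miRNA array, read with Agilent Feature Extraction 11.5.1.1 according to the submitters' processing notes. The deposited files of the scanner give intensity per spot on a linear scale, background-subtracted and not scaled between arrays, per the file headers. The authors' deposited table holds log2 values in 1902 rows. It ranks detected miRNAs as Agilent's signal does (Spearman rho 1.0 on each array) and has the same 323 highest values in every column. Its medians were -3.23, -3.32 and -3.29 for IMB, -3.20, -3.25 and -3.23 for DOX, and -3.28 and -3.31 for CTRL, and how the authors set its low values and its centring is not known here.

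Processed intensity was averaged over non-outlier spots of a probe and scaled to the 75th percentile of the 454 probes that every array detected. The probes for each miRNA were then averaged, raised to a floor of 20.9 where lower (detected probes' 1st percentile, median of arrays), and log2-transformed. Detection on every array of a group admitted 294 miRNAs, 27 of them at the floor on all arrays. limma 3.58.1 in R 4.3.3 was fitted on all 8 arrays with 5 residual and 0.605 prior degrees of freedom, 2-sided, with Benjamini-Hochberg adjustment. Alternatives covered scaling, background, the signal, the floor, the filter, how probes are combined, the variance model, a covariate, blocks, the authors' table and single pools, and the steps were tested on simulated data. Values by probe, within slide rows and without miRNAs at the floor on all arrays were added after seeing the data. Named were the members, their other arms, lists of epithelial and cell type miRNAs, and the 5 miRNAs most like the family. The members and lists were chosen with earlier results of these data known. Figures were drawn with matplotlib 3.10.9.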

Additional observations from a re-analysis of the deposited data

How the results depend on the processing

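Under 26 alternatives no member passed the threshold in limma. The lowest adjusted p was 0.361 for IMB minus CTRL, 0.0706 for DOX minus CTRL and 0.0672 for IMB minus DOX, and the highest was 1 in each. Of 104 member values each, 103 lay above 0 for IMB minus CTRL, 104 above 0 for DOX minus CTRL and 98 below 0 for IMB minus DOX. Alternatives that change only the filter or the variance model return the main estimate, as does leaving out pools of the group not compared. These counts therefore include repeats of the main values and are not counts of separate checks. The values that changed sign were miR-200a-3p in IMB minus CTRL, at -0.0209 in the authors' deposited table, and 6 in IMB minus DOX. These were miR-200b-3p with no scaling (0.000167), with miR-24-3p and miR-23a-3p as references (0.0741) and with the red cell index (0.0565), miR-200a-3p with those references (0.049), and miR-429-3p (0.0516) and miR-141-3p (0.197) with the index. The median difference of the members moved beyond 1 SD between pools to 0.374 with those references and 0.385 with the index for IMB minus CTRL, to 0.16 with no scaling for DOX minus CTRL, and to -0.0502 with no scaling, 0.0237 with those references and 0.0541 with the index for IMB minus DOX. The median of all tested miRNAs moved too, to 0.186 with those references for IMB minus CTRL, to -0.319 with no scaling for DOX minus CTRL, and to 0.233 with no scaling and 0.301 with those references for IMB minus DOX. With normexp background, the members' median relative to that of all was 0.0608, 0.235 and -0.145 for IMB minus CTRL, DOX minus CTRL and IMB minus DOX. The cause of the changes with the index and with normexp was not tested.

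Leaving out each pool in turn gave medians of 0.09 to 0.21 for IMB minus CTRL, 0.42 to 0.67 for DOX minus CTRL, and between -0.46 and -0.23 for IMB minus DOX, with 0 members past the threshold each time. Deviations from the group mean correlated at -0.24 to 0.40 between pools with the same number, and at -0.46 to 0.47 between pools with different numbers. With 2 or 3 pools per group these values cannot settle whether the numbers pair the samples, and the main fit does not pair them. With the replicate block the medians were 0.14, 0.49 and -0.35 in the same order of comparisons, with 0 members past the threshold. The floor limits miR-141-3p and miR-200c-3p, and 2 control pools limit both comparisons with CTRL.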
